A study of Mus musculus with 8 samples.

Results

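Wnt ligands made by an epithelium were followed here through 10 genes, Wnt3, Wnt4, Wnt5a, Wnt6, Wnt7a, Wnt7b, Wnt9a, Wnt10a, Wnt10b and Wnt11, picked by name out of the 19 Wnt ligand genes of the mouse and found among the 32728 genes of the count table. Because the list was drawn up with levels from these libraries in view, the values of the 10 genes are a description and carry no test. The samples were organoids of APS colon cancer, 3-dimensional epithelial cultures from C57BL/6 mice. CRISPR knockout of Apc, Trp53 and Smad4 was shared by every group. Line CTO19 (labelled male) and line apsMC706 (labelled female) were each studied after 7 days without EGF (noEGF) and after 3 days in a medium with B27, noggin, the TGF-beta receptor inhibitor galunisertib and EGF (EM). The 4 groups were CTO19 noEGF, CTO19 EM, apsMC706 noEGF and apsMC706 EM, with 2 libraries of poly(A) RNA each. The media cannot be told apart from the days in culture, nor the lines from their labelled sex. The labels do not say whether a line is a single clone, nor whether the 2 replicates were separate cultures, so the p-values given for other genes measure the spread between these libraries, which may be technical.

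A Wnt protein is given a lipid by the enzyme Porcn, is carried to the cell surface by Wls, and binds a Frizzled receptor together with a co-receptor. With Lrp5 or Lrp6 as co-receptor it silences the complex of Apc, Axin and Gsk3 that destroys beta-catenin. Beta-catenin then drives target genes with Tcf and Lef factors. Ror2, Ryk and the planar polarity proteins carry Wnt signals that do not need beta-catenin. Loss of Apc stabilises beta-catenin downstream of the ligands. In the gut, Wnts come from Paneth cells of the small intestine and from stromal cells around the crypts, and stratified epithelia such as the epidermis make their own, Wnt4 and Wnt10a among them.

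Library totals ran from 35650262 to 38953838 counts, and 3 counts, the most that a count of 0 allows, were 0.0745 to 0.0868 CPM, the library-scaled count unit used throughout. Intervals and floors cover counting error only. Mitochondrially encoded genes held 2.94% to 5.19% of counts. Apc, Trp53 and Smad4 were counted in all 8 libraries, at 59.8 to 198 CPM, 13.0 to 33.3 CPM and 10.8 to 39.9 CPM, and counts over a whole gene do not check an edit. The epithelial genes Epcam and Cdh1 lay at 345 to 648 CPM and 591 to 941 CPM in every library, while the colon markers Krt20 and Cdx1 stood at or near 0 in all of them. Of 9 fibroblast markers, Col1a2 and Lum had at most 2 counts in any library, and others were well above 0: Dcn had 383 and 382 counts in CTO19 noEGF against 4 and 3 in CTO19 EM. Col3a1 had 261 and 324 counts in apsMC706 noEGF against 144 and 143 in apsMC706 EM, and Gli1 had 106 to 146 counts in the CTO19 libraries. The 9 markers summed to 13.7 to 14.6 CPM in CTO19 noEGF, 5.45 to 6.37 CPM in CTO19 EM, 8.05 to 9.03 CPM in apsMC706 noEGF and 4.13 to 4.28 CPM in apsMC706 EM. The Paneth markers Lyz1, Ang4 and the defensins were at or near 0, and of the 6 Paneth markers Mmp7 and, in apsMC706, Itln1 carried the summed level, which was 83.0 to 106 CPM in CTO19 noEGF, 18.2 to 21.2 CPM in CTO19 EM, 974 to 1032 CPM in apsMC706 noEGF and 57.6 to 60.3 CPM in apsMC706 EM. The immune marker Ptprc had at most 5 counts in any library, while Csf1r had 279 and 218 counts in CTO19 noEGF against 27 and 19 in CTO19 EM. Both sums, and that of 7 immune markers (11.1 to 12.6 CPM in CTO19 noEGF, 5.09 to 5.59 in CTO19 EM, 8.08 to 8.29 in apsMC706 noEGF and 1.43 to 1.69 in apsMC706 EM), were higher without EGF, and their part in the Wnt values below was not tested. Fewer cells of a type and less RNA per cell cannot be told apart in these bulk libraries.

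Promoter sequences from RefSeq (GRCm38.p6, the assembly of mm10) were found for 7 of the 10 genes, in 8 windows, 2 of them for Wnt11. Of these, 7 end at the base before the annotated gene start, and the second Wnt11 window lies inside the gene. Each window was searched on both strands for the Tcf/Lef core CTTTGAT or CTTTGAA and for the AP-1 motif TGANTCA. Among 32851 windows of 250 bases from all genes, 7.48% held either Tcf/Lef form and 6.75% held the AP-1 motif. Of the 8 Wnt windows, 1 held a Tcf/Lef form, the one upstream of Wnt11, and 0 held the AP-1 motif. The windows of Wnt6 (chr1:74771642-74771891, plus strand) and Wnt7a (chr6:91411364-91411603, minus strand) are shown because these genes had the largest rise and the largest fall of the 10 without EGF in CTO19. That of Wnt11 (chr7:98834862-98835111, plus strand) is shown because of its match, which is in capitals and reads as the reverse complement of CTTTGAT.
Wnt6: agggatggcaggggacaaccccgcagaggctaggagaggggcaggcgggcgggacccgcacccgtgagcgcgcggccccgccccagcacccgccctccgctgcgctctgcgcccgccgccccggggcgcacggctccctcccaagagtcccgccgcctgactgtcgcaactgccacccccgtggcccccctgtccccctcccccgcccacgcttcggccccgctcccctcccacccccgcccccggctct
Wnt7a: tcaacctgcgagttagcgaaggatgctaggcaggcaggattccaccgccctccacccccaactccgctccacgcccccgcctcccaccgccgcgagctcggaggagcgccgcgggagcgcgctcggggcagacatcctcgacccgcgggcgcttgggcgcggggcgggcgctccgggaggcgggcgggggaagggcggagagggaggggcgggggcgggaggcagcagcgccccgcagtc
Wnt11: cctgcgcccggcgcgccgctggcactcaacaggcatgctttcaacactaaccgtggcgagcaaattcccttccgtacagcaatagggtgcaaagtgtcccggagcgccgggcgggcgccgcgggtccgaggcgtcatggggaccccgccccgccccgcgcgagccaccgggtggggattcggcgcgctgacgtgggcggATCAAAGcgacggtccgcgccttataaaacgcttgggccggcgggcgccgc
A match is a description of letters, and the absence of one says only that these letters are not in the window. The windows of Wnt6 and Wnt7a differ in this search from neither each other nor the other 5 windows without a match.

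Measured per kilobase of exon, so that genes can be set side by side, the Wnt ligand RNA was higher in CTO19 than in apsMC706 in both media. The summed level of all 19 genes was 89.1 ± 3.56 CPM per kb in CTO19 noEGF, 83.7 ± 2.27 in CTO19 EM, 26.0 ± 0.904 in apsMC706 noEGF and 25.8 ± 0.403 in apsMC706 EM (SD, n = 2 libraries each). The 10 listed genes made up between 90.5% and 97.4% of that sum in any library. Wnt7b was the largest single contributor to the sum in CTO19 EM, at 29.6% ± 0.183, and Wnt6 in apsMC706 EM, at 56.3% ± 0.363. In noEGF the levels of these 2 genes per kb of merged exon overlapped between libraries in both lines. As shares of the sum, Wnt7b and Wnt6 held 32.1% ± 4.29 and 25.5% ± 8.59 in CTO19 noEGF. They held 48.7% ± 0.991 and 46.5% ± 0.963 in apsMC706 noEGF. Within each apsMC706 noEGF library Wnt7b held the larger share (49.4% against 45.9%, and 48.0% against 47.2%). In CTO19 noEGF it did so in replicate 1 alone (35.2% against 19.4%, and 29.1% against 31.6% in replicate 2). With length taken from the longest transcript, the Wnt7b share was 39.5% in CTO19 noEGF and 56.3% in apsMC706 noEGF.

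**Figure D1:**
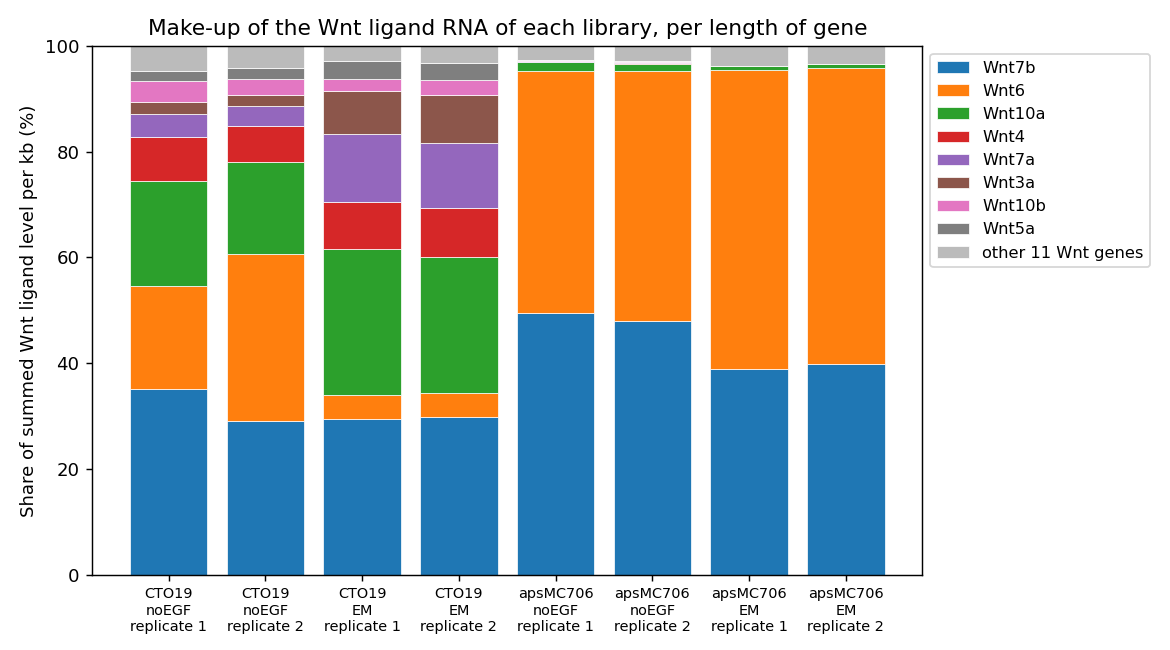
Share of the summed Wnt ligand level (CPM per kb, in percent) held by each gene in each of the 8 libraries, one bar per library. Wnt7b and Wnt6 fill nearly all of the 4 apsMC706 bars, while the CTO19 bars also hold Wnt10a, Wnt4, Wnt7a and Wnt3a, and the Wnt6 share is 25.5% in CTO19 noEGF and 4.57% in CTO19 EM.

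Below these leaders the order of levels per kb differed between the lines. In CTO19 noEGF the mean level ran down from Wnt7b, Wnt6 and Wnt10a through Wnt4, Wnt7a, Wnt10b, Wnt5a, Wnt9a and Wnt3 to Wnt11, from 28.6 to 0.520 CPM per kb. The neighbours whose libraries overlapped were Wnt7b with Wnt6, Wnt6 with Wnt10a, and Wnt9a with Wnt3. In CTO19 EM the order was Wnt7b, Wnt10a, Wnt7a, Wnt4, Wnt6, Wnt5a, Wnt10b, Wnt9a, Wnt3 and Wnt11, from 24.8 to 0.227 CPM per kb, with overlap at the last step alone. Wnt6 was thus near the top in CTO19 noEGF and in the middle of the order in CTO19 EM. In apsMC706, Wnt10a followed at 0.381 CPM per kb in noEGF and 0.163 CPM per kb in EM, and the other 7 lay at or below 0.0505 CPM per kb, with overlapping libraries for most neighbours.

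Wnt7b and Wnt6 were the members well counted in both lines. Wnt7b, which drives branching and growth in the embryonic lung and acts through beta-catenin (ENSMUSG00000022382, chromosome 15, 85535437 to 85582473 in mm10, minus strand), had 149 and 131 CPM in CTO19 noEGF against 119 and 124 CPM in CTO19 EM, and 61.3 and 62.5 CPM in apsMC706 noEGF against 48.7 and 51.0 CPM in apsMC706 EM. In each line the noEGF libraries lay above the EM libraries without overlap, and every CTO19 library lay above every apsMC706 library. The log2 fold change of noEGF over EM was 0.20 (SE 0.0562) in CTO19 and 0.31 (SE 0.0607) in apsMC706, and that of CTO19 over apsMC706 was 1.18 (SE 0.0582) in noEGF and 1.29 (SE 0.0595) in EM. Without replicate 1 of CTO19 noEGF the CTO19 value was 0.11, and without replicate 1 of CTO19 EM it was 0.17. The antisense gene AU022754 shares 324 exon bases with Wnt7b, and the library kit does not mark strand, so reads there cannot be assigned to one of them.

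Wnt6, known in the chick for keeping somites epithelial (ENSMUSG00000033227, chromosome 1, 74771892 to 74785322, plus strand), had 36.9 and 63.4 CPM in CTO19 noEGF against 8.16 and 8.60 CPM in CTO19 EM. In apsMC706 it had 25.4 and 27.5 CPM in noEGF against 31.6 and 32.0 CPM in EM. The noEGF libraries were thus the higher ones in CTO19 and the lower ones in apsMC706, with no overlap in either line, and the CTO19 noEGF libraries differed between themselves more than those of any other group. The log2 fold change of noEGF over EM was 2.58 (SE 0.329) in CTO19 and -0.26 (SE 0.289) in apsMC706, and the difference between these responses was 2.85 (SE 0.441). Wnt6 was also the one member that was lower in CTO19 than in apsMC706 in a medium: the log2 fold change of CTO19 over apsMC706 was -1.92 (SE 0.341) in EM and 0.92 (SE 0.279) in noEGF. The 2 CTO19 noEGF libraries lay above the apsMC706 noEGF libraries, and the 2 CTO19 EM libraries below the apsMC706 EM libraries.

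**Figure D2:**
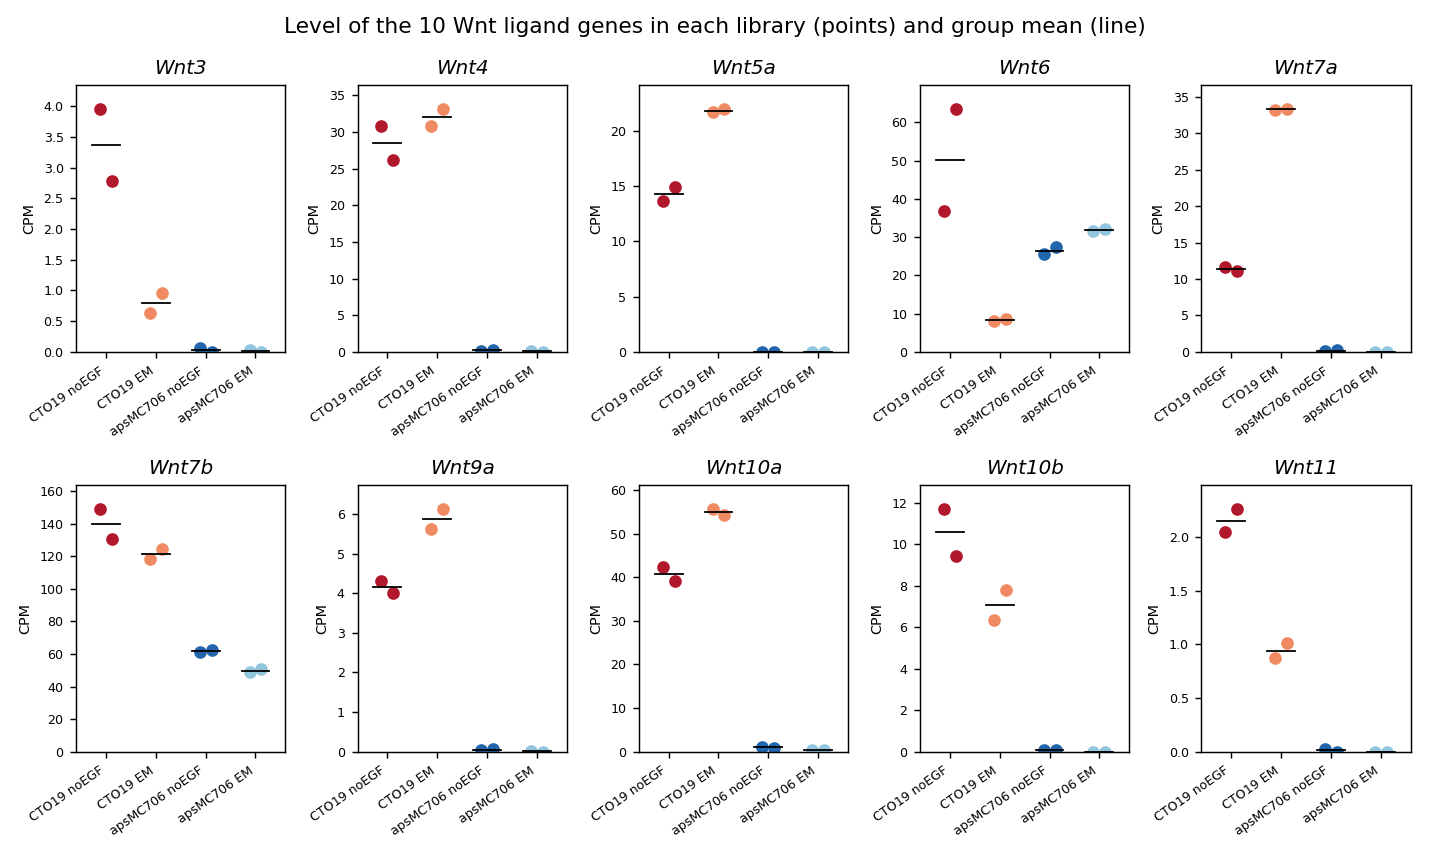
Level in CPM (linear axis from 0, a scale of its own in each panel) of the 10 Wnt ligand genes in the 8 libraries, with points for libraries and a line for the mean of each group of 2. Of the 10 genes, Wnt6 and Wnt7b have all apsMC706 points well above 0, and Wnt6 has its noEGF points above EM in CTO19 and below EM in apsMC706.

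Next to Wnt6, starting 6194 bases beyond its end on chromosome 1, lies Wnt10a, a ligand of hair, tooth and skin development that signals through beta-catenin (ENSMUSG00000026167, 74791516 to 74804179, plus strand). It had 42.3 and 39.1 CPM in CTO19 noEGF against 55.7 and 54.2 CPM in CTO19 EM, and 1.04 and 0.845 CPM in apsMC706 noEGF against 0.397 and 0.409 CPM in apsMC706 EM. Its directions were the opposite of those of Wnt6 in both lines. The log2 fold change of noEGF over EM was -0.43 (SE 0.0563) in CTO19 and 1.22 (SE 0.251) in apsMC706, where it rests on 15 to 38 counts per library. The difference between these was -1.65 (SE 0.256). The line difference was 5.43 (SE 0.101) on the log2 scale in noEGF and 7.08 (SE 0.114) in EM. Wnt6, its neighbour, had 933 to 1194 counts in every apsMC706 library.

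Wnt7a, which patterns the back of the developing limb (ENSMUSG00000030093, chromosome 6, 91363981 to 91411363, minus strand), had 11.7 and 11.2 CPM in CTO19 noEGF against 33.3 and 33.3 CPM in CTO19 EM. This was the largest fall among the members in CTO19, with a log2 fold change of -1.54 (SE 0.0779). In apsMC706 it had 4 and 8 counts in noEGF and 0 counts in EM, at least 1.99-fold higher in noEGF when 3 counts per library are put in place of 0. Against apsMC706, the CTO19 level was at least 413-fold higher in EM and 6.12 higher on the log2 scale (SE 0.184) in noEGF.

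The remaining ligands that act mainly through beta-catenin were expressed in CTO19 and close to absent from apsMC706. Wnt10b, a brake on fat cell formation (ENSMUSG00000022996, chromosome 15, 98770712 to 98778150, minus strand), had 11.7 and 9.44 CPM in CTO19 noEGF against 6.37 and 7.81 CPM in CTO19 EM, a log2 fold change of 0.57 (SE 0.136). Wnt3, the Paneth cell ligand that can maintain intestinal stem cells (ENSMUSG00000000125, chromosome 11, 103774150 to 103817957, plus strand), had 3.96 and 2.78 CPM in CTO19 noEGF against 0.637 and 0.955 CPM in CTO19 EM, a log2 fold change of 2.07 (SE 0.283). These 2 genes were higher in noEGF, and the libraries of the 2 media did not overlap. Wnt9a, which helps to form joints (ENSMUSG00000000126, chromosome 11, 59306928 to 59333552, plus strand), went the other way, with 4.31 and 4.0 CPM in CTO19 noEGF against 5.62 and 6.12 CPM in CTO19 EM, a log2 fold change of -0.50 (SE 0.144). In apsMC706 these 3 genes had 0 to 3 counts per library, at or below the limit that a count of 0 allows, so no fold between the media is given for them there. The ratio of CTO19 over apsMC706 in noEGF was 125 for Wnt3 (95% counting interval 34.2 to 1035), 103 for Wnt9a (34.9 to 502) and 157 for Wnt10b (67.0 to 485).

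The other members, Wnt4, Wnt5a and Wnt11, are known mainly for signals that do not need beta-catenin, and they had at most 11 counts in any apsMC706 library. Wnt4, needed for kidney tubules and the female reproductive tract (ENSMUSG00000036856, chromosome 4, 137277489 to 137299726, plus strand), had 30.8 and 26.2 CPM in CTO19 noEGF against 30.9 and 33.1 CPM in CTO19 EM, a log2 fold change of -0.17 (SE 0.0886), the smallest in size of the 10 in CTO19, and the higher noEGF library lay just under the lower EM library. It had 4 and 11 counts in apsMC706 noEGF and 3 and 1 counts in apsMC706 EM, a ratio of 3.75 (95% counting interval 1.19 to 15.5). The line difference in noEGF was 7.12 on the log2 scale (SE 0.196), and 7.99 without replicate 2 of apsMC706 noEGF.

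Wnt5a, the main ligand of Ror2 (ENSMUSG00000021994, chromosome 14, 28504750 to 28527448, plus strand), had 13.6 and 14.9 CPM in CTO19 noEGF against 21.7 and 21.9 CPM in CTO19 EM, a log2 fold change of -0.61 (SE 0.0855). In apsMC706 it had 1 count in 1 library and 0 in the other 3, so its level in CTO19 EM was at least 271-fold that in apsMC706 EM. Wnt11, which guides cell movement in frog and fish gastrulation and branching of the mouse kidney (ENSMUSG00000015957, chromosome 7, 98835112 to 98855195, plus strand), had 2.05 and 2.26 CPM in CTO19 noEGF against 0.868 and 1.01 CPM in CTO19 EM, a log2 fold change of 1.19 (SE 0.238). It had 1 count in all 4 apsMC706 libraries together. Both were therefore CTO19 transcripts with opposite directions between the media. Wnt5a shares 358 exon bases with the antisense gene Gm2670 and Wnt11 shares 364 with the pseudogene Gm8398, so part of their reads is uncertain.

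**Figure D3:**
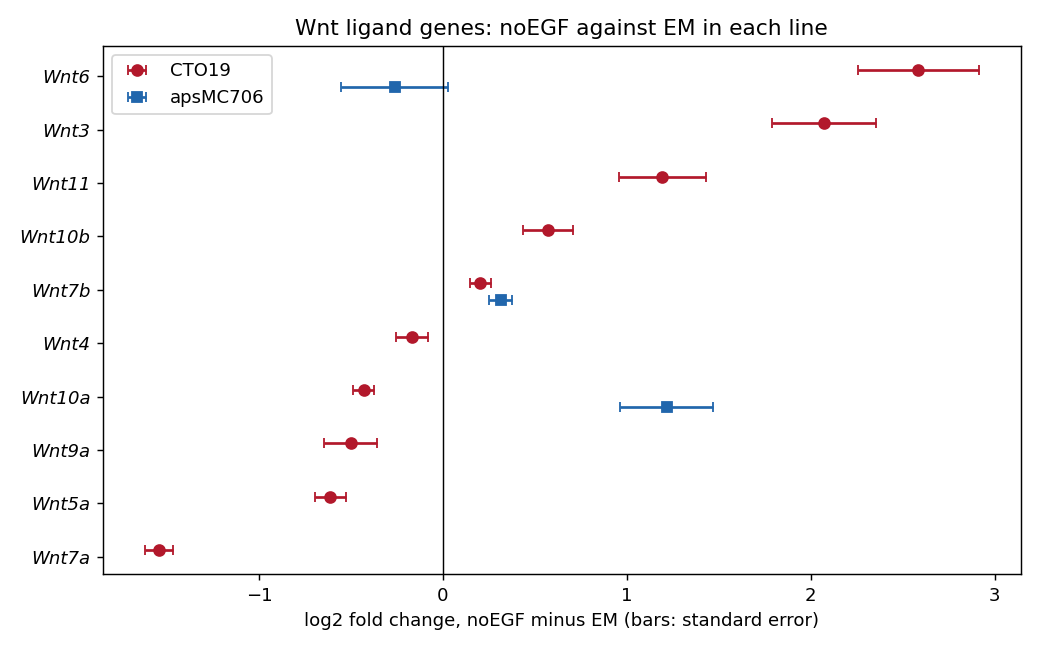
Log2 fold change of noEGF over EM for each Wnt ligand gene in CTO19 (circles) and, for the 3 genes with more than 3 counts in every apsMC706 library, in apsMC706 (squares), with bars of 1 standard error. In CTO19 the genes spread from 2.58 for Wnt6 to -1.54 for Wnt7a, and Wnt6 and Wnt10a have opposite signs in the 2 lines.

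The counts of members past an adjusted p of 0.05 in the edgeR fit of all genes are given as a description. In CTO19, 5 of 10 were higher in noEGF (Wnt3, Wnt6, Wnt7b, Wnt10b and Wnt11) and 4 were lower (Wnt5a, Wnt7a, Wnt9a and Wnt10a), with a median log2 fold change of 0.02, beside 34.7% of all 16719 tested genes higher, 33.3% lower (68% in all) and a median of 0.02. In apsMC706, 4 were higher (Wnt7a, Wnt7b, Wnt10a and Wnt10b, the last at 3 counts or fewer per library) and 0 lower, beside 34.1% and 33.1% of all genes (67.2% in all), and no median is given since 7 of the 10 had at most 11 counts in any apsMC706 library. Over both lines, 3 were higher (Wnt3, Wnt7b and Wnt11) and 0 lower, beside 25.5% and 23.3% of all genes (48.8% in all). With DESeq2's Wald test the count over both lines was 5, and with a filter of 1 CPM in at least 4 libraries, which leaves out Wnt3 and Wnt11, it was 1. The response of CTO19 exceeded that of apsMC706 for 1 member (Wnt6) and fell short of it for 3 (Wnt4, Wnt7a and Wnt10a), beside 30.4% and 25.6% of all genes (56% in all). Nothing is read from these counts, since the list was drawn up from the same contrasts, and the comparisons share libraries.

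Between the lines, all 10 members were higher in CTO19 noEGF than in apsMC706 noEGF, beside 45.7% of all genes higher and 34.3% lower (80% in all). In EM, 9 were higher and 1 lower, beside 37.5% and 33.8% of all genes (71.3% in all). Of the 10 members, 7 passed the filter on low counts through CTO19 alone, so these counts had to come out high and support nothing. The Wnt6 call in noEGF was lost without either CTO19 EM library or any single apsMC706 library, at log2 fold changes of 0.87 to 0.99. Its call in EM was lost without replicate 1 of CTO19 EM, at -1.89. Markers of stratified squamous epithelium separated the lines: 14 of them summed to 9269 to 9874 CPM in CTO19 noEGF and 10082 to 10311 CPM in CTO19 EM, against 89.0 to 90.3 CPM in apsMC706 noEGF and 87.8 to 88.7 CPM in apsMC706 EM. Trp63, the master factor of stratified epithelium, had 68.0 and 63.1 CPM in CTO19 noEGF and 130 and 131 CPM in CTO19 EM, and at most 0.211 CPM in any apsMC706 library. Within CTO19 it was lower without EGF, whereas of 13 tested squamous markers 8 were higher in noEGF and 2 lower, beside 34.7% and 33.3% of all genes. Krt1, a keratin of differentiating layers, had 713 and 879 CPM in CTO19 noEGF against 21.4 and 23.1 CPM in CTO19 EM. A set of 10 colon epithelium markers summed to 3703 to 3785 CPM in CTO19 noEGF and 2949 to 3090 CPM in CTO19 EM, against 3290 to 3310 CPM in apsMC706 noEGF and 3206 to 3265 CPM in apsMC706 EM. The part of these markers' cells in the differences between lines and media was not tested.

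The other 9 Wnt ligand genes added a single well-expressed member, Wnt3a, a ligand that acts through beta-catenin. Wnt3a had 5.22 and 5.49 CPM in CTO19 noEGF against 18.6 and 21.4 CPM in CTO19 EM, and 0 counts in all 4 apsMC706 libraries. It fell in CTO19 (log2 fold change -1.90, SE 0.109, edgeR adjusted p = 8.5e-09), lower in 2 of 2 noEGF libraries, and its level in CTO19 EM was at least 248-fold that in apsMC706 EM. Wnt3a lies 16176 bases from Wnt9a on chromosome 11, and both were lower in CTO19 noEGF than in CTO19 EM. Wnt5b, the close relative of Wnt5a, went the opposite way to it between the lines, with 0.646 and 1.02 CPM in CTO19 noEGF, 0.318 and 0.365 CPM in CTO19 EM, 1.23 and 1.61 CPM in apsMC706 noEGF, and 2.20 and 2.10 CPM in apsMC706 EM. Its log2 fold change of CTO19 over apsMC706 in EM was -2.64 (SE 0.294, edgeR adjusted p = 1.17e-06). The responses of Wnt5b differed between the lines by 1.88 (SE 0.409, edgeR adjusted p = 0.00118), while the rise within CTO19 (1.28, SE 0.344, edgeR adjusted p = 0.00413) was lost without replicate 2 of CTO19 noEGF (adjusted p = 0.0661).

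The rest of the family was scarce. Wnt8a had 33 and 24 counts in CTO19 noEGF against 0 and 5 counts in CTO19 EM, a ratio of 10.3 (95% counting interval 4.18 to 33.0). Wnt16, expressed in skin and joints, had 0.619 and 0.745 CPM in CTO19 noEGF against 0.116 and 0.281 CPM in CTO19 EM. The log2 fold change was 1.76 (SE 0.439, edgeR adjusted p = 0.0025), and 2.53 without replicate 2 of CTO19 EM. The call was lost with DESeq2 (adjusted p = 0.0591). Wnt16 had 23 and 30 counts in CTO19 noEGF and 10 or fewer in every other library. It passed the filter on low counts through CTO19 noEGF, so its call as higher was largely set by the filter. Wnt2b, a stromal Wnt of the intestine, stayed between 0.281 and 0.736 CPM in all libraries and did not pass the threshold in any of the 6 comparisons. Leaving out replicate 2 of CTO19 noEGF moved its log2 fold change of CTO19 over apsMC706 in noEGF from -0.51 to -1.20. Leaving out replicate 1 of CTO19 noEGF moved that of noEGF over EM over both lines from 0.57 to 0.80. Each of these then passed. Wnt9b had 5 and 10 counts in CTO19 noEGF and 0 in the other 6 libraries. Wnt1, Wnt2 and Wnt8b had at most 2 counts in any library.

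Of the genes that ready Wnts for release, Wls was higher without EGF in both lines and Porcn in apsMC706. Wls, the carrier, had 281 and 280 CPM in CTO19 noEGF against 132 and 136 CPM in CTO19 EM, and 166 and 160 CPM in apsMC706 noEGF against 140 and 135 CPM in apsMC706 EM. It rose over both lines by 0.66 (SE 0.162, edgeR adjusted p = 0.0132), higher in 4 of 4 noEGF libraries, and more in CTO19 than in apsMC706 (difference 0.82, SE 0.0559, edgeR adjusted p = 1.58e-08). In EM the carrier did not differ past the threshold between the lines (log2 fold change -0.04, SE 0.0399, edgeR adjusted p = 0.43), the medium in which the summed ligand level was 83.7 CPM per kb in CTO19 and 25.8 CPM per kb in apsMC706. Porcn, which attaches the lipid, had 10.7 and 10.9 CPM in CTO19 noEGF against 10.5 and 10.4 CPM in CTO19 EM, and 2.97 and 3.59 CPM in apsMC706 noEGF against 0.688 and 1.09 CPM in apsMC706 EM. It rose in apsMC706 (1.89, SE 0.193, edgeR adjusted p = 5.12e-07) and did not pass in CTO19 (0.05, SE 0.109, edgeR adjusted p = 0.695), and the responses differed (-1.84, SE 0.224, edgeR adjusted p = 6.03e-06). In EM it was 3.56 higher on the log2 scale in CTO19 than in apsMC706 (SE 0.162, edgeR adjusted p = 3.66e-11).

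Of the 8 processing and secretion genes, all tested, 1 rose over both lines and 5 fell, beside 25.5% and 23.3% of all genes, with a median of -0.25 beside 0.03 for all genes. The cargo receptor subunit Tmed5 fell by 0.70 (SE 0.108, edgeR adjusted p = 0.00188), and Snx3 and the retromer subunit Vps35, which return Wls to the Golgi, fell by 0.27 (SE 0.0482, edgeR adjusted p = 0.00311) and by 0.25 (SE 0.0494, edgeR adjusted p = 0.00478). The fall of the retromer subunit Vps26a was lost without replicate 1 or replicate 2 of CTO19 noEGF (adjusted p = 0.0531 and 0.0816). Without a term for line in the model, 3 genes of all the Wnt pathway lists passed over both lines, against 31 with it. Over both lines the rise of the carrier Wls (0.66) was thus larger than the falls of Snx3 and Vps35. In apsMC706 alone it was not larger. There Vps35 had 200 and 199 CPM in noEGF against 239 and 240 CPM in EM, and Wls 166 and 160 CPM against 140 and 135 CPM.

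Frizzled receptors differed between the lines gene by gene. In EM, 5 of 10 were higher in CTO19 than in apsMC706 and 5 were lower, beside 37.5% and 33.8% of all genes, with a median of 0.11 beside 0.02 for all genes. Fzd7, a receptor of intestinal stem cells, had 19.2 and 20.4 CPM in CTO19 noEGF and 14.3 and 15.0 CPM in CTO19 EM, against 112 and 112 CPM in apsMC706 noEGF and 77.2 and 80.2 CPM in apsMC706 EM. It was lower in CTO19 by 2.43 on the log2 scale in EM (log2 fold change -2.43, SE 0.0533, edgeR adjusted p = 8.1e-15). It rose in noEGF over both lines (0.47, SE 0.0519, edgeR adjusted p = 0.00044), higher in 4 of 4 noEGF libraries. Fzd1 went the other way between the lines, with 52.3 and 52.4 CPM in CTO19 noEGF and 14.0 and 15.0 CPM in CTO19 EM, against 3.16 and 2.77 CPM in apsMC706 noEGF and 1.40 and 1.31 CPM in apsMC706 EM. Fzd1 rose over both lines (1.55, SE 0.154, edgeR adjusted p = 0.000322) and was 3.41 higher in CTO19 in EM (SE 0.108, edgeR adjusted p = 5.04e-13). Fzd8 was not found in apsMC706, with 0 counts in its 4 libraries, and its level in CTO19 EM was at least 29.7-fold that in apsMC706 EM.

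A pair of receptors reversed between the lines. Fzd3, which guides axons and planar polarity, had 30.1 and 28.6 CPM in CTO19 noEGF against 11.2 and 10.5 CPM in CTO19 EM, and 11.6 and 10.1 CPM in apsMC706 noEGF against 21.6 and 23.6 CPM in apsMC706 EM. Its log2 fold changes were 1.44 (SE 0.0798, edgeR adjusted p = 1.02e-09) and -1.06 (SE 0.081, edgeR adjusted p = 2.08e-08), which differ by 2.50 (SE 0.114, edgeR adjusted p = 3.25e-10). Fzd9 did the opposite, with 0.565 and 0.373 CPM in CTO19 noEGF against 1.51 and 1.29 CPM in CTO19 EM, and 7.39 and 7.21 CPM in apsMC706 noEGF against 3.17 and 2.91 CPM in apsMC706 EM. The difference between its responses was -2.84 (SE 0.285, edgeR adjusted p = 8.18e-07). Fzd6, a planar polarity receptor of skin, lay between 89.4 and 106 CPM in all 8 libraries, and is named here after its values were seen. Fzd5, the receptor tied to Paneth cell maturation, lay between 11.3 and 20.1 CPM, and its call as lower in CTO19 in EM (-0.24, SE 0.0776, edgeR adjusted p = 0.0129) was lost without replicate 1 of apsMC706 EM (adjusted p = 0.0714) or replicate 2 of CTO19 EM (adjusted p = 0.058). Over both lines 4 of 10 Frizzled genes rose and 0 fell, beside 25.5% and 23.3% of all genes. The call for Fzd10 (1.42, SE 0.376, edgeR adjusted p = 0.0174) was lost without replicate 1 (1.12, adjusted p = 0.0643) or 2 (1.40, adjusted p = 0.0648) of CTO19 EM. The call for Fzd2 (0.86, SE 0.269, edgeR adjusted p = 0.0327) was lost without either of these (0.67 and 0.71, adjusted p = 0.105 and 0.111) or replicate 1 of CTO19 noEGF (adjusted p = 0.0503).

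**Figure D4:**
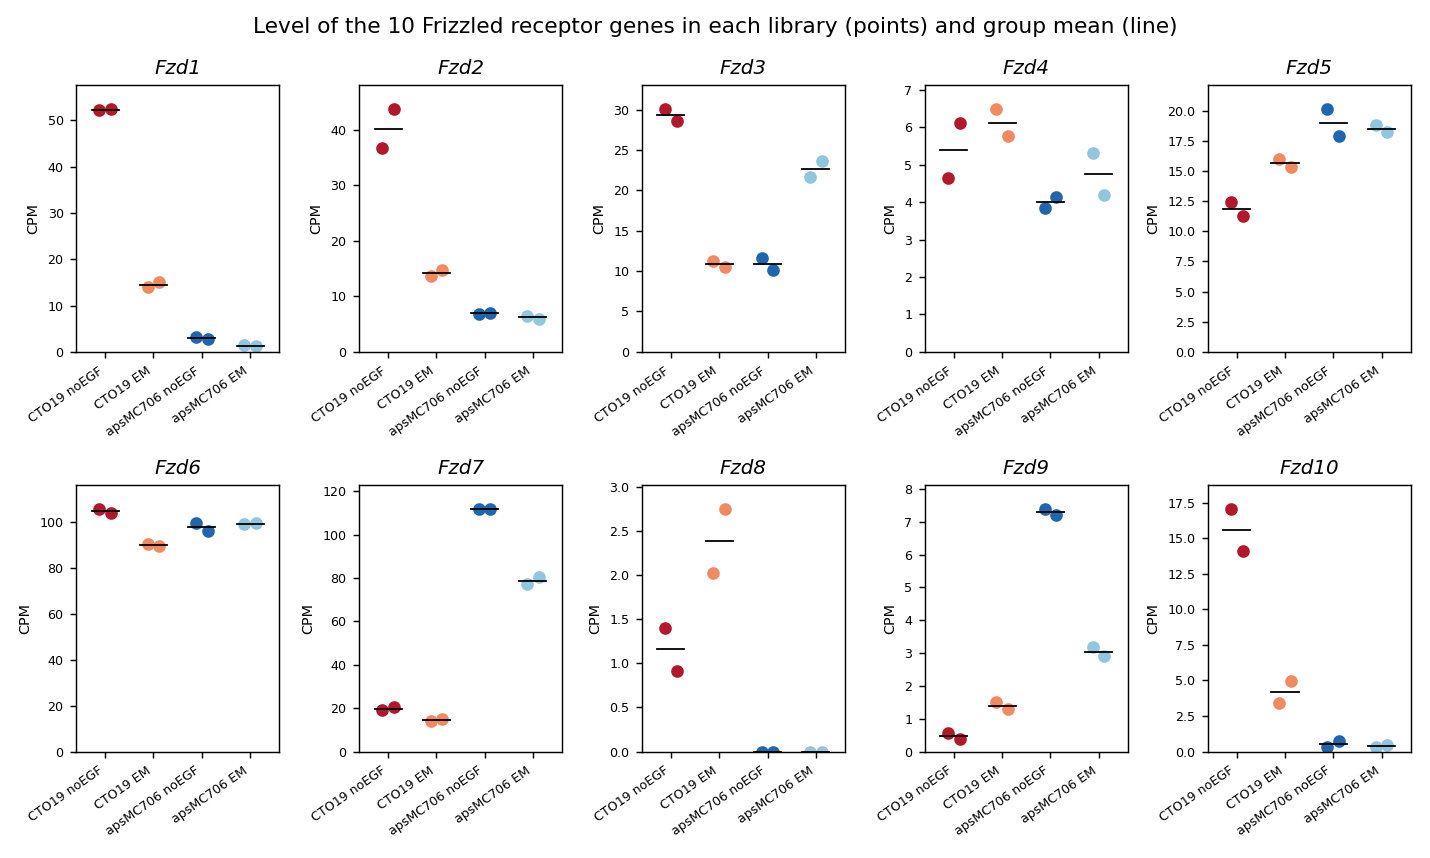
Level in CPM (linear axis from 0, a scale of its own in each panel) of the 10 Frizzled receptor genes in the 8 libraries, with points for libraries and a line for the mean of each group of 2. Fzd7 and Fzd9 have their apsMC706 points above their CTO19 points, Fzd1, Fzd2, Fzd8 and Fzd10 the reverse, and Fzd3 has its media in opposite order in the 2 lines.

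The co-receptors of the beta-catenin branch did not pass the threshold between the media over both lines. Lrp5 had 128 and 131 CPM in CTO19 noEGF, 127 and 130 CPM in CTO19 EM, 228 and 223 CPM in apsMC706 noEGF, and 225 and 229 CPM in apsMC706 EM, a log2 fold change over both lines of -0.0016 (SE 0.0477, edgeR adjusted p = 0.983). It was lower in CTO19 than in apsMC706 in EM by 0.82 (log2 fold change -0.82, SE 0.038, edgeR adjusted p = 4.37e-11). Lrp6 lay between 106 and 156 CPM and did not pass over both lines (0.03, SE 0.0844, edgeR adjusted p = 0.79), though it did within apsMC706 (0.17, SE 0.0688, edgeR adjusted p = 0.0448), a call lost without any 1 of the 4 apsMC706 libraries (adjusted p = 0.0574 to 0.249). Ror2, the partner of Wnt5a, had 0.780 and 0.895 CPM in CTO19 noEGF and 0.232 and 0.197 CPM in CTO19 EM, against 46.8 and 47.9 CPM in apsMC706 noEGF and 51.5 and 53.8 CPM in apsMC706 EM (CTO19 over apsMC706 in EM, -7.92, SE 0.119, edgeR adjusted p = 1.34e-16). The ligand Wnt5a was thus counted in CTO19 and Ror2 mainly in apsMC706. Ryk, named above with Ror2, was well counted in both lines. It had 202 and 182 CPM in CTO19 noEGF and 224 and 234 CPM in CTO19 EM. In apsMC706 it had 149 and 151 CPM in noEGF and 162 and 167 CPM in EM. Ptk7, a planar polarity co-receptor, had the reverse pattern to Ror2, with 112 and 121 CPM in CTO19 noEGF and 91.8 and 97.0 CPM in CTO19 EM against 1.23 and 1.22 CPM in apsMC706 noEGF and 0.635 and 0.599 CPM in apsMC706 EM (7.25 in EM, SE 0.0944, edgeR adjusted p = 3.81e-17).

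Reck and Adgra2, which let Wnt7a and Wnt7b signal in brain vessels, were scarce in every library. Reck had 16 and 16 counts in CTO19 noEGF against 4 and 5 counts in CTO19 EM. In apsMC706 it had 6 and 15 counts in noEGF against 0 counts in EM, at least 3.48-fold higher in noEGF (edgeR adjusted p = 0.000448). Reck passed the filter on low counts only through noEGF libraries, so its calls as higher were largely set by the filter. Adgra2 rose in apsMC706 (38 and 39 counts in noEGF against 3 and 4 counts in EM, log2 fold change 3.41, SE 0.472, edgeR adjusted p = 1.31e-05) and had 12 to 28 counts in the CTO19 libraries. The glypican Gpc4 and the receptor Ror1 rose over both lines, by 0.73 (SE 0.107, edgeR adjusted p = 0.00148) and 0.88 (SE 0.137, edgeR adjusted p = 0.00189). Ror1 did not differ past the threshold between the lines in EM (edgeR adjusted p = 0.448). Of the 10 co-receptors 4, Reck among them, rose over both lines and 1 fell, beside 25.5% and 23.3% of all genes. That fall, of Ryk (-0.19, SE 0.0603, edgeR adjusted p = 0.0321), was lost in 7 of 8 leave-outs, which left values between -0.21 and -0.09.

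Other genes set how long Frizzled receptors stay at the surface. The R-spondins Rspo1 to Rspo4 had at most 3 counts in any library. Of the 5 tested genes of that list 3 rose over both lines and 0 fell, beside 25.5% and 23.3% of all genes, while Lgr4 (-0.07, SE 0.122, edgeR adjusted p = 0.683) and Lgr6 (0.21, SE 0.336, edgeR adjusted p = 0.643) did not pass. Those that rose were the ligases Rnf43, by 1.04 (SE 0.214, edgeR adjusted p = 0.0062), and Znrf3, by 0.49 (SE 0.111, edgeR adjusted p = 0.0098), which remove Frizzled receptors, and the R-spondin receptor Lgr5, by 0.71 (SE 0.159, edgeR adjusted p = 0.00861). Lgr5 had 15.7 and 26.5 CPM in CTO19 noEGF and 15.0 and 13.5 CPM in CTO19 EM, against 290 and 310 CPM in apsMC706 noEGF and 170 and 163 CPM in apsMC706 EM. Its relative Lgr6, a receptor of skin stem cells, was 9.03 higher on the log2 scale in CTO19 than in apsMC706 in EM (SE 0.368, edgeR adjusted p = 1.95e-06). That value rests on 4 and 4 counts in apsMC706 EM, against 1928 and 2137 counts in CTO19 EM, so its size is uncertain. Of 14 secreted inhibitors 6 were tested and all 6 rose over both lines, beside 25.5% of all genes. Among them 3, named after their values were seen (Dkk4, Sfrp5 and Sostdc1), had 2 counts or fewer in every apsMC706 library. These 3 passed the filter on low counts only through CTO19 noEGF, so their calls as higher were largely set by the filter. Within apsMC706, 2 of the 6 rose and 0 fell, beside 34.1% and 33.1% of all genes. Wif1, which binds Wnt proteins, had 10.8 and 11.2 CPM in CTO19 noEGF against 1.68 and 1.85 CPM in CTO19 EM, and 2.73 and 2.56 CPM in apsMC706 noEGF against 0.370 and 0.272 CPM in apsMC706 EM. Dkk2, which binds Lrp co-receptors, had 7.27 and 11.7 CPM in CTO19 noEGF against 1.74 and 2.50 CPM in CTO19 EM, and 41.2 and 39.1 CPM in apsMC706 noEGF against 4.31 and 4.63 CPM in apsMC706 EM (over both lines 2.69, SE 0.266, edgeR adjusted p = 0.000318). Unlike Wif1 it was lower in CTO19 than in apsMC706 in EM (-1.07, SE 0.337, edgeR adjusted p = 0.0289), a call lost without any 1 of the 4 EM libraries (adjusted p = 0.079 to 0.195). Notum, which strips the lipid from Wnts, had 47.0 and 74.2 CPM in CTO19 noEGF against 14.8 and 16.7 CPM in CTO19 EM. In apsMC706 it was scarce, with 0.682 and 0.740 CPM in noEGF against 0.159 and 0.218 CPM in EM. Within apsMC706 it did not pass in the main fit, and passed with a replicate block (1.90, edgeR adjusted p = 0.00621).

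Planar polarity and Dishevelled genes, which act below the receptors, rose in 5 of 14 tested over both lines and fell in 0, beside 25.5% and 23.3% of all genes, with a median of 0.46 beside 0.03 for all genes. The cadherin Celsr2 rose by 0.78 (SE 0.0717, edgeR adjusted p = 0.00024) and Prickle3 by 1.05 (SE 0.227, edgeR adjusted p = 0.00781). The rise of Celsr3 (0.89, SE 0.242, edgeR adjusted p = 0.0195) was lost without any 1 of the 4 apsMC706 libraries (0.74 to 0.83, adjusted p = 0.056 to 0.0737). Vangl2, a core planar polarity protein, had 42.8 and 47.2 CPM in CTO19 noEGF against 27.5 and 27.8 CPM in CTO19 EM (log2 fold change 0.70, SE 0.0653, edgeR adjusted p = 2.31e-07) and 3 counts or fewer in every apsMC706 library. Its partner Celsr1 had 136 and 136 CPM in CTO19 noEGF against 112 and 97.6 CPM in CTO19 EM, and 23.3 and 23.9 CPM in apsMC706 noEGF against 8.04 and 8.31 CPM in apsMC706 EM. Celsr1 rose over both lines (0.92, SE 0.225, edgeR adjusted p = 0.0127), less in CTO19 than in apsMC706 (difference -1.15, SE 0.097, edgeR adjusted p = 1.62e-07), and was higher in CTO19 than in apsMC706 in EM (3.68, SE 0.0718, edgeR adjusted p = 3.73e-15). Dvl1 rose in apsMC706 (1.06, SE 0.0426, edgeR adjusted p = 2.03e-11) and did not pass in CTO19 (-0.04, SE 0.0428, edgeR adjusted p = 0.374), and these responses differed by -1.10 (SE 0.0603, edgeR adjusted p = 1.81e-09).

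The genes most like the 3 leading members were sought among 9208 genes by Pearson's r of log2 CPM over the 8 libraries, which fall into 4 groups, so high values are common. For Wnt7b they were Psmd8, Cd151 and Serpinb7 (r 0.998, 0.998 and 0.997), and 60 genes exceeded 0.99. For Wnt10a they were Pls3, Tfap2a and Bmp1 (r 0.999, 0.999 and 0.998), and 94 genes exceeded 0.99. For Wnt6 they were Sorcs2, Hebp2 and Ube2q1 (r 0.994, 0.989 and 0.989), and 1 gene exceeded 0.99. The 2 CTO19 noEGF libraries of Wnt6 lay apart (36.9 and 63.4 CPM), and such a spread also lowers r, so this count does not show a rarer pattern.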

How the data were processed

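Poly(A) RNA of 8 organoid libraries was sequenced after preparation with a kit that does not mark strand. The values are raw read counts per gene, deposited by the authors as whole numbers in 1 table. STAR 2.7.0a and the mm10 build are named in the submitters' processing notes, and the sources used here do not name the counting program, its strand setting or its annotation. All 8 columns were matched to samples by their names, and 0 columns of other samples were present.

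Genes were named and placed with GENCODE M21, which matched 32680 of 32728 identifiers. After a filter on low counts (edgeR's filterByExpr), 16719 genes with 99.97% of all counts were tested with edgeR 4.0.16 (quasi-likelihood F test, TMM scaling, R 4.3.3), with p-values adjusted by Benjamini and Hochberg over all 16719. The comparisons were noEGF over EM within each line, the same over both lines with line as a term, the difference between the lines' responses, and CTO19 over apsMC706 within each medium. CPM used library totals scaled by TMM, and CPM per kb used merged exon length. A group at 0 was set to 3 counts per library, and groups of few counts got a ratio with an exact 95% counting interval. At these depths 3 counts were at most 0.0868 CPM. The 2 libraries of each group differed by more than sampling noise. The code was tested on simulated data. Alternatives were DESeq2 1.42.0 size factors and Wald test, no filter, a stricter filter, a replicate block, no line term, fits of 4 libraries and leaving out each library.

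The members and gene lists were chosen with earlier results of these data known. All 10 members and the other 9 Wnt genes are named. From each other list, genes past the threshold with the smallest p were named, up to 3 in each direction over both lines and up to 2 in each direction for the difference between the lines' responses and for the line comparison in EM, together with known partners of the members. Proteins were not analysed here.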

Additional observations from a re-analysis of the deposited data

Results flagged for a closer look

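The following genes stood out because the noEGF response went in opposite directions in the 2 lines, or differed between them. Wnt6 had a log2 fold change of 2.58 (SE 0.329) in CTO19 and -0.26 (SE 0.289) in apsMC706, a difference of 2.85, and Wnt10a had -0.43 (SE 0.0563) in CTO19 and 1.22 (SE 0.251) in apsMC706, a difference of -1.65. Both genes belong to the list drawn up with these levels in view, so these differences are a description, and no test of them is given.

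Among the receptors, Fzd3 differed by 2.50 between the lines (edgeR adjusted p = 3.25e-10, from 1.44 in CTO19 and -1.06 in apsMC706) and Fzd9 by -2.84 (edgeR adjusted p = 8.18e-07, from -1.58 in CTO19 and 1.26 in apsMC706). Ror2 differed by 2.11 (edgeR adjusted p = 1.76e-05), from 1.96 (SE 0.282) in CTO19, where it had 36 counts or fewer per library, and -0.15 (SE 0.0516) in apsMC706. Lgr4, a receptor for R-spondins, differed by 0.59 (edgeR adjusted p = 7.01e-06), from 0.23 (SE 0.0521) in CTO19 and -0.36 (SE 0.0508) in apsMC706.

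Below the receptors, Dvl2 differed by 0.55 (edgeR adjusted p = 2.64e-05, from 0.31 in CTO19 and -0.24 in apsMC706) and Dvl3 by 0.56 (edgeR adjusted p = 6.62e-05, from 0.41 in CTO19 and -0.15 in apsMC706). Dvl1 differed the other way, by -1.10 (edgeR adjusted p = 1.81e-09, from -0.04 in CTO19 and 1.06 in apsMC706). Scrib, a cell polarity scaffold, differed by 0.32 (edgeR adjusted p = 0.000135, from 0.05 in CTO19 and -0.27 in apsMC706).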

How the results depend on the processing

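Over both lines, 3 members, 31 Wnt pathway genes and 8157 of all genes passed the threshold. Without a term for line these counts were 0, 3 and 1806. The member count was 1 with a filter of 1 CPM in at least 4 libraries and 5 with DESeq2's Wald test. With length taken from the longest transcript, the summed Wnt level per kb was 104 in CTO19 noEGF, 95.8 in CTO19 EM, 32.3 in apsMC706 noEGF and 31.2 in apsMC706 EM, and the Wnt7b share was 39.5%, 37.3%, 56.3% and 46.9% in the same order. With TMM left out of the scaling, the CTO19 EM sum was 81.1. Lrp5 in apsMC706 turned to 0.11 with the stricter filter (edgeR adjusted p = 0.0111, against -0.0089 with the usual filter). The stricter filter changes the TMM scaling, which by itself shifts every apsMC706 log2 fold change by 0.12. No other single-gene result past the threshold turned round under these settings.

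Leaving out 1 library at a time, members past the threshold numbered 2 to 5 over both lines, 8 to 9 in CTO19, 3 to 6 in apsMC706, 3 to 5 for the difference between the lines' responses, and 9 to 10 between the lines in noEGF and in EM. Pathway genes numbered 27 to 31, 41 to 44, 28 to 36, 23 to 33, 46 to 52 and 42 to 47 in that order of 6 comparisons, and all genes 6929 to 7409, 10479 to 11191, 10013 to 11579, 8288 to 9231, 12589 to 13828 and 10827 to 12277. The summed level ran from 86.6 to 91.7 in CTO19 noEGF, 82.0 to 85.3 in CTO19 EM, 25.3 to 26.6 in apsMC706 noEGF and 25.5 to 26.1 in apsMC706 EM, and the Wnt7b share from 29.1% to 35.2%, 29.5% to 29.8%, 48.0% to 49.4% and 39.0% to 39.9%. A library left alone in its group is assumed to vary like the other groups. Over all leave-outs, 2009 single results stayed on their side of the threshold, 89 lost it, 38 gained it and 0 turned round.

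Over all tested genes, the deviations of same-numbered libraries correlated at -0.00825 to 0.0485. Among better-expressed genes, whose log2 CPM averaged 3 or more, the range was 0.0199 to 0.175, highest between CTO19 EM and apsMC706 noEGF. The correlations were thus weak, and whether the replicate numbers mark paired cultures was not tested. With a replicate block, 6988 of all genes, 3 members and 29 pathway genes passed over both lines. Fzd2 (adjusted p = 0.0589) and Ryk (adjusted p = 0.0624) lost the call, and 5 results gained one. The cause of these changes was not tested. Members with few counts in apsMC706 limit what can be seen there.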
